A study of Mus musculus with 12 samples.

Results

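Hearts of mice given sunitinib were compared with hearts of mice given erlotinib, 3 RNA-seq libraries against 3. These 6 libraries, of the 12 in the series, were taken by their titles (Sunitinib_1368, Sunitinib_1369 and Sunitinib_1370 against Erlotinib_1374, Erlotinib_1375 and Erlotinib_1376), and all genes in the deposited tables were used. The mice were female and of the FVB strain, and the libraries were made from polyA RNA of heart tissue. Sunitinib was given at 40 mg/kg/day and erlotinib at 50 mg/kg/day, both for 14 days. Each drug was given at 1 dose, so drug and dose cannot be told apart. The 3 control libraries (Control_1365, Control_1366 and Control_1367) came from mice given water and place each gene between the drugs. A further group of 3 libraries, from mice given sorafenib at 30 mg/kg/day for 14 days, entered the model and the mean that list scores are relative to. The age of the mice, the route of dosing and the drugs' vehicle could not be taken from the sources used here. No label says that the libraries of a group came from separate animals, so the p-values below measure the spread between these libraries, which may be in part technical.

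Both drugs are kinase inhibitors used against cancer. Sunitinib blocks a broad set of receptor tyrosine kinases, the VEGF, PDGF and KIT receptors among them, and erlotinib blocks EGFR, a receptor that signals through RAS, RAF, MEK and ERK. ERK signalling switches on immediate early genes within minutes and feedback genes such as the Sprouty family, which dampen the same cascade. Heart muscle answers load and injury with natriuretic peptides, stretch-responsive sarcomere proteins and chaperones, and damage to heart muscle is a known adverse effect of sunitinib in patients.

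The 12 libraries held 14304529 to 16534769 expected counts (estimated reads per gene), and 13440 of 21705 listed genes had enough counts to be tested. Levels below are counts per 1000000 (CPM), normalised between libraries and not per length, so they compare libraries and not genes. The 12 cardiomyocyte markers were all present and summed to 106000 to 116000 CPM in the 6 libraries, as in the control libraries (107000 to 109000 CPM). Some libraries stood apart from others of their group. A score over 24 atrial and conduction markers (mean log2 level relative to all 12 libraries) was 0.90 in Sunitinib_1368, 1.24 in Sunitinib_1369 and -0.59 in Sunitinib_1370, and 0.31, -0.48 and -1.28 in the 3 erlotinib libraries. A score over 10 neutrophil markers was -0.56, 0.09 and -0.69 with sunitinib and -0.18, 1.39 and 1.54 with erlotinib, with Elane and Mpo at 0 counts in all 6. Control_1366 stood nearer to the erlotinib libraries than the other control libraries did. In a library of whole tissue, fewer cells of a type and less RNA per cell cannot be told apart.

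Of the 13440 genes, 1595 differed between the drugs at a Benjamini-Hochberg adjusted p under 0.05 in edgeR's quasi-likelihood test, which is 11.9% of those tested. Levels of 853 of them (6.35%) were higher with sunitinib and levels of 742 (5.52%) were higher with erlotinib. Most differences were small. The median absolute log2 difference of the 1595 genes was 0.585, 628 differed by less than 0.5 and 340 by at least 1 on the log2 scale. The 68 genes that differed by at least 2 on the log2 scale were 28 higher with sunitinib and 40 higher with erlotinib. The 3 sunitinib libraries did not overlap the 3 erlotinib libraries for 1585 of the 1595 genes, and for 4533 (33.7%) of all genes tested.

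The number of genes depended on single libraries. It was 423 without Erlotinib_1376, 783 without Sunitinib_1369, 809 without Sunitinib_1370 and 844 without Erlotinib_1375, and 386 of the 1595 genes passed in each of the 6 fits that left out 1 library. With the atrial score as a covariate 929 genes (6.91%) passed, 829 of the 1595 among them, and all 1595 kept their direction. Below, a gene passed all 6 of these fits unless the libraries without which it failed are named.

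**Figure D1:**
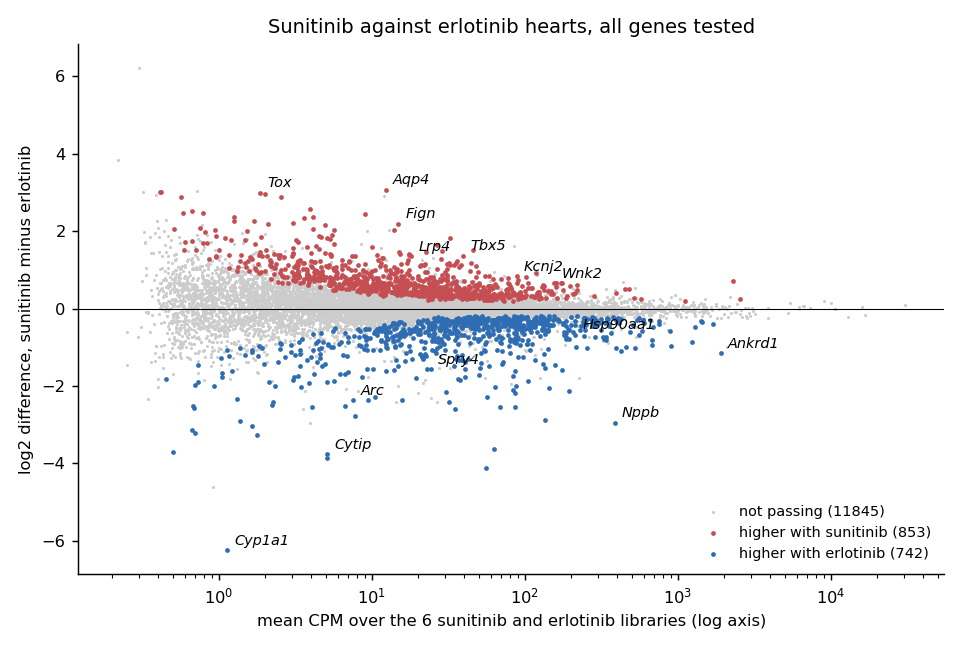
Log2 difference between sunitinib and erlotinib hearts (vertical axis) against the mean CPM over the 6 libraries (horizontal log axis), 1 point per gene tested. Red points are the 853 genes higher with sunitinib, blue points the 742 higher with erlotinib at an adjusted p under 0.05. The widest differences run from Cyp1a1 at the bottom to Aqp4 at the top.

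Control hearts lay between the 2 drugs for most of these genes. On a scale where 0 is the mean log2 level with erlotinib and 1 the mean with sunitinib, the control mean fell between 0 and 1 for 1506 of the 1595 genes (94.4%). It was nearer to sunitinib for 899 of them and nearer to erlotinib for 607. It lay beyond the sunitinib mean for 58 genes and beyond the erlotinib mean for 31. The median position was 0.568, with quartiles of 0.402 and 0.721, and it was close in both directions, at 0.556 for the genes higher with sunitinib and 0.580 for those higher with erlotinib. The sunitinib and erlotinib means thus sat on opposite sides of the control mean for most of the genes that set them apart. Lying between them was not particular to control. The sorafenib mean also fell between 0 and 1 for 86.0% of the 1595 genes, with a median position of 0.661. These genes were chosen for a difference between sunitinib and erlotinib, so the positions are a description with no test. Whether the 2 drugs had opposite effects was not tested.

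The 3 control libraries differed in that position. Their median positions over the 1595 genes were 0.709 in Control_1365, 0.364 in Control_1366 and 0.608 in Control_1367. The sunitinib libraries lay at 0.918 to 1.07 and the erlotinib libraries at -0.133 to 0.119, a narrow range that the choice of genes favours, as these groups were used to choose them. Without Control_1366 the median position was 0.652 and control lay between the drugs for 88.8% of the genes, and without Control_1365 these values were 0.485 and 91.2%.

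**Figure D2:**
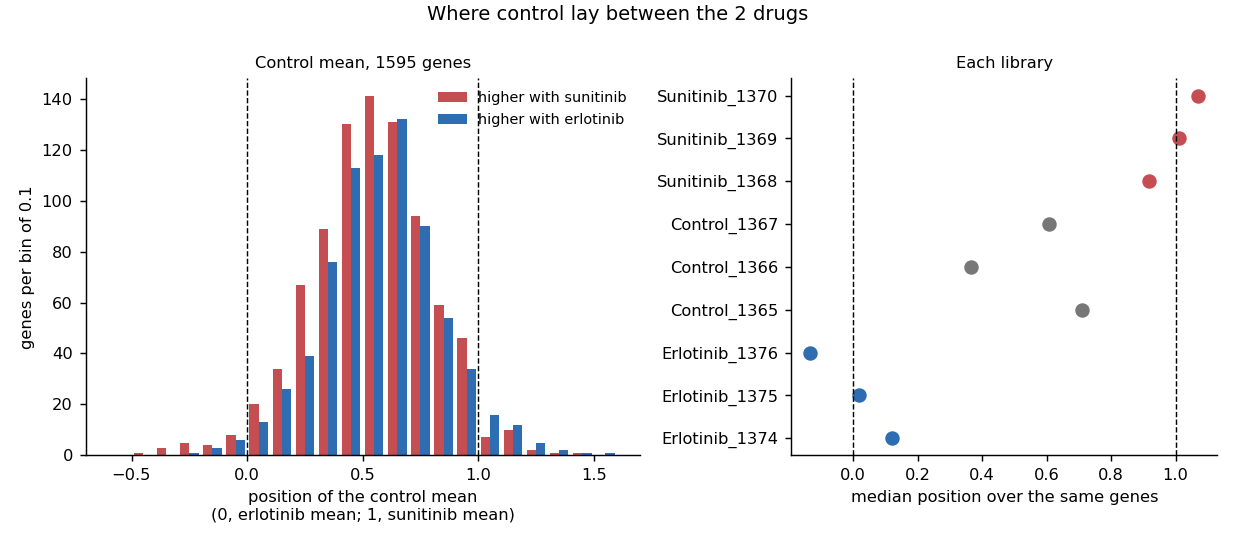
Left, number of genes (vertical axis) by position of the control mean between the erlotinib mean (0) and the sunitinib mean (1), in bins of 0.1, for the 853 genes higher with sunitinib (red) and the 742 higher with erlotinib (blue). Right, the median position of each library over the same 1595 genes, where the control libraries lie between 0.364 and 0.709.

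Each drug against control gave far fewer genes than the drugs against each other. Sunitinib against control gave 0 genes at an adjusted p under 0.05 in edgeR, with 1460 (10.9%) at an unadjusted p under 0.05, and DESeq2 gave 86. Erlotinib against control gave 39 genes (0.290%), 23 higher and 16 lower with erlotinib, and 2090 (15.6%) at an unadjusted p under 0.05. That count was 235 without Control_1366 and 0 without either of the other control libraries, and 22, 3 and 2 without Erlotinib_1374, Erlotinib_1375 and Erlotinib_1376. These 2 comparisons share the control libraries. Control against the midpoint of the 2 drugs, which is independent of the difference between them, gave 0 genes, with 812 (6.04%) at an unadjusted p under 0.05 and 14 in DESeq2.

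The genes of smallest p included Kcnj2, Efnb3, Ell2, Spry4, Lrp4, Slmap, Gypc, Nhsl1 and Lonrf2. Kcnj2, the channel that carries much of the inward rectifier potassium current and holds the resting potential of heart muscle, was at 106, 117 and 120.0 CPM with sunitinib, 94.6, 84.3 and 86.5 CPM in control and 66.1, 65.4 and 59.99 CPM with erlotinib. The 3 groups did not overlap and control lay in the middle. The means were 114 ± 7.496 CPM with sunitinib and 63.8 ± 3.34 CPM with erlotinib (SD, n = 3), a log2 difference of 0.84 ± 0.07 (SE; adjusted p = 0.000318). Against control the log2 difference was 0.37 ± 0.07 with sunitinib (adjusted p = 0.203) and -0.47 ± 0.07 with erlotinib (adjusted p = 0.0385).

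Spry4, the Sprouty inhibitor of receptor signalling to ERK, was at 13.7, 11.04 and 12.4 CPM with sunitinib, 14.6, 14.8 and 12.95 CPM in control and 35.8, 28.97 and 44.9 CPM with erlotinib. Here control lay close to sunitinib, and erlotinib was 2.95-fold above sunitinib (log2 difference -1.56 ± 0.15, adjusted p = 0.000318).

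Among the others, Lrp4, a receptor known from the neuromuscular junction and WNT signalling, was at 23.4, 25.5 and 29.4 CPM with sunitinib, 15.6, 16.6 and 19.9 CPM in control and 9.86, 11.1 and 9.62 CPM with erlotinib (log2 difference 1.35 ± 0.13). Efnb3, an ephrin ligand, had a log2 difference of 0.91 ± 0.09 and Gypc, a membrane glycoprotein of the red cell skeleton, one of 1.17 ± 0.12. Higher with erlotinib were Slmap, a protein of the heart muscle membrane (log2 difference -0.79 ± 0.08), and Ell2, a transcription elongation factor (-1.197 ± 0.11). Nhsl1 and Lonrf2 were higher with sunitinib, by 1.13 ± 0.12 and 1.14 ± 0.13 on the log2 scale. Control stood between the drug means for each of these genes, at positions from 0.50 (Efnb3) to 0.87 (Spry4).

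**Figure D3:**
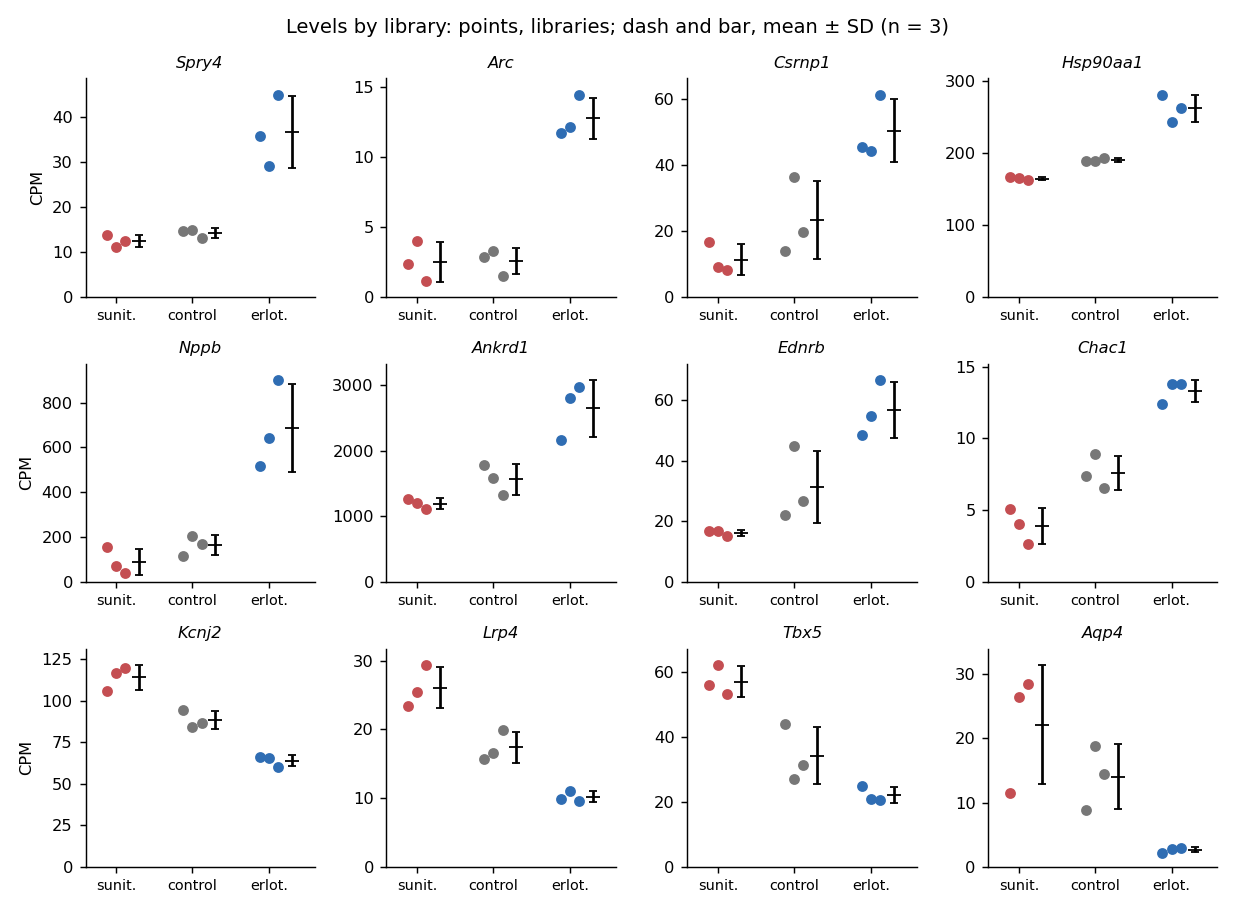
Levels of 12 genes in each library of the sunitinib, control and erlotinib groups, in CPM on axes that start at 0. Points are libraries, dashes and bars the mean ± SD (n = 3), and for each gene the 3 sunitinib points and the 3 erlotinib points do not overlap.

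The 12 widest differences in the direction of erlotinib were those of Cyp1a1, Atf3, Cytip, Thbs1, Mmp8, Runx3, Nppb, Adamts4, Ddit4, Gdf15, Cd14 and Nr4a1. Cyp1a1, the cytochrome P450 induced through the aryl hydrocarbon receptor, had 28, 48 and 28 counts in the erlotinib libraries, 0, 1 and 0 in the sunitinib libraries and 0, 1 and 1 in the control libraries. Its ratio of erlotinib to sunitinib, scaled by library totals, was 100.3, with a 95% interval of 17.6 to 4000.0 that covers counting error only (adjusted p = 0.000828). Cytip, a regulator of cell adhesion in leukocytes, was at 0.486, 0.968 and 0.633 CPM with sunitinib and 8.64, 8.56 and 11.4 CPM with erlotinib (log2 difference -3.76 ± 0.51, adjusted p = 0.00277). Its control values were 1.65, 6.43 and 1.61 CPM, with Control_1366 the high one. Atf3 and Thbs1 had the same high library among the controls.

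Atf3, a stress-induced transcription factor, was at 8.87, 6.196 and 3.02 CPM with sunitinib, 4.48, 48.7 and 15.2 CPM in control and 32.6, 211 and 72.1 CPM with erlotinib. Thbs1, thrombospondin 1, was at 10.3, 13.5 and 4.43, 6.61, 72.4 and 29.8 and 62.1, 176 and 113 CPM in the same order. For both, Control_1366 stood within the range of the erlotinib libraries. Atf3 (log2 difference -4.11 ± 0.98), Thbs1 (-3.63 ± 0.83), Mmp8 (-3.27 ± 0.93), Runx3 (-3.04 ± 0.76) and Cd14 (-2.58 ± 0.57) passed among the 6 fits only in the one without Erlotinib_1374, and Ddit4 (-2.88 ± 0.78) in none. Nr4a1 (-2.54 ± 0.69) passed only without Sunitinib_1368. Adamts4 (-2.896 ± 0.68) and Gdf15 (-2.77 ± 0.61) failed without Sunitinib_1369 and without Erlotinib_1376, Adamts4 also without Erlotinib_1375 and Gdf15 also without Sunitinib_1370. Mmp8 and Cd14 are genes of neutrophils and monocytes, and the neutrophil score was high in 2 of the 3 erlotinib libraries. The part of those cells in the difference was not tested.

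The widest differences in the direction of sunitinib included those of Aqp4, Tox, Sfrp5, Ubxn10, Inmt, P2ry13, Snai3, Atcay, Aox3, Aass and Fign. Aqp4, a water channel, was at 11.5, 26.5 and 28.5 CPM with sunitinib, 8.89, 18.9 and 14.4 CPM in control and 2.18, 2.85 and 2.87 CPM with erlotinib. Control overlapped sunitinib and stood above all erlotinib libraries. The level with sunitinib was 8.38-fold that with erlotinib (log2 difference 3.07 ± 0.39, adjusted p = 0.00277). Fign, a microtubule-severing protein, was at 22.05, 20.8 and 30.7 CPM with sunitinib, 20.4, 9.54 and 11.4 CPM in control and 6.46, 5.64 and 3.94 CPM with erlotinib (log2 difference 2.19 ± 0.298, adjusted p = 0.00331).

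Tox, an HMG-box factor known from T cell development, differed by 2.999 ± 0.57 on the log2 scale, Inmt, an amine methyltransferase, by 2.44 ± 0.34 and Aass, the first enzyme of lysine breakdown, by 2.21 ± 0.38. Ubxn10, a UBX-domain protein, differed by 2.57 ± 0.43. P2ry13, Snai3 and Aox3 failed without Erlotinib_1376 and Atcay without Erlotinib_1375. Sfrp5, a secreted WNT inhibitor, passed only without Erlotinib_1374.

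Some genes that EGFR and ERK signalling induce, or that feed back on it, passed as higher with erlotinib. Of 19 tested members of a list of ERK feedback and ERK-induced genes, 6 passed as higher with erlotinib and 1 (Etv1) as higher with sunitinib, against 5.52% and 6.35% of all genes, and the median log2 difference was -0.36. Beside Spry4, the list held Errfi1, a direct protein inhibitor of EGFR, at 33.8, 27.04 and 32.8 CPM with sunitinib and 125, 124 and 173 CPM with erlotinib (log2 difference -2.17 ± 0.37, adjusted p = 0.00909). Its control values were 32.6, 97.2 and 42.03 CPM, of which only Control_1366 came near the erlotinib libraries. Hbegf, an EGFR ligand, was at 30.4, 24.4 and 18.9 CPM with sunitinib, 28.1, 37.8 and 26.4 CPM in control and 47.6, 75.9 and 59.8 CPM with erlotinib (log2 difference -1.31 ± 0.25, adjusted p = 0.01099). The sunitinib and control libraries overlapped and the erlotinib libraries stood above both.

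Epha2, an Eph receptor and ERK target, was at 10.4, 7.55 and 8.16 CPM with sunitinib, 7.72, 8.902 and 10.03 CPM in control and 15.5, 15.98 and 15.9 CPM with erlotinib (log2 difference -0.86 ± 0.13, adjusted p = 0.00373). Spry1 also passed, and, like Etv1, failed without Sunitinib_1369 and without Erlotinib_1376. Other feedback genes did not pass. The ERK phosphatase Dusp6 was at 23.6 ± 0.885 CPM with sunitinib and 31.01 ± 3.94 CPM with erlotinib (adjusted p = 0.1003). The count of 6 ranged from 4 to 6 over the 6 fits that left out 1 library.

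Immediate early genes, the first transcripts to rise after a stimulus, also passed in number on the side of erlotinib. Of 40 tested members, 34 had a log2 difference below 0, 16 passed as higher with erlotinib (40.0%, against 5.52% of all genes) and 1 passed as higher with sunitinib (Ier3, which failed in all fits but that without Sunitinib_1370). The median log2 difference was -0.86, against 0.01 over all genes tested. Junb, an AP-1 subunit, was at 33.8, 40.2 and 22.5 CPM with sunitinib, 30.3, 38.4 and 43.2 CPM in control and 70.1, 71.4 and 71.9 CPM with erlotinib. The erlotinib libraries agreed closely and stood above all others (log2 difference -1.14 ± 0.19, adjusted p = 0.00573).

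Arc, known as an activity-regulated gene of neurons, was at 2.31, 3.94 and 1.12 CPM with sunitinib, 2.83, 3.25 and 1.49 CPM in control and 11.7, 12.1 and 14.4 CPM with erlotinib. Control and sunitinib overlapped, and erlotinib was 5.14-fold above sunitinib (log2 difference -2.36 ± 0.37, adjusted p = 0.00453). Trib1, a pseudokinase that binds MEK, had a log2 difference of -1.33 ± 0.15 (adjusted p = 0.000889), Csrnp1, a nuclear factor, one of -2.16 ± 0.37 (adjusted p = 0.00824) and Klf6, a zinc finger factor, one of -0.72 ± 0.12 (adjusted p = 0.00486). Zfp36, which speeds the decay of cytokine messages, was at 38.1, 37.7 and 38.5 CPM with sunitinib and 113, 141 and 132 CPM with erlotinib, while its control values were 28.1, 84.4 and 53.8 CPM. Control_1365 was below all sunitinib libraries and the other 2 control libraries lay between the drugs.

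The score of the immediate early list was -0.11, -0.28 and -0.66 in the sunitinib libraries, -0.61, 0.14 and -0.06 in the control libraries and 0.49, 0.87 and 0.70 in the erlotinib libraries. Sunitinib and control overlapped in this score and erlotinib stood above both. The number of members that passed as higher with erlotinib was 6 without Sunitinib_1370, 7 without Erlotinib_1376, 9 without Sunitinib_1369 and 10 without Erlotinib_1375, and 8 members passed with the atrial score as a covariate.

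Promoter windows of immediate early genes were searched for the cAMP response element TGACGTCA and the AP-1 site TGANTCA on both strands, since these are textbook sites of such genes. Windows of 300 bases, from 250 before to 50 after the start of transcription, came from RefSeq (GRCm38.p6), and 24 of 31 passing members of 3 lists (immediate early, heat shock, aryl hydrocarbon receptor) had at least 1. The immediate early genes that passed as higher with erlotinib had 16 windows, of 11 genes. The cAMP element was in 2 of these 16 windows and the AP-1 letters in 1. Over all 32851 windows the shares were 1.79% and 7.81%. They were 2.89% and 5.27% over windows of the genes tested, and 3.91% and 5.60% over those of all genes that passed as higher with erlotinib. Other motifs searched in the 16 windows were the CArG box CCWWWWWWGG (W is A or T, in 1 window), the aryl hydrocarbon receptor core TNGCGTG (1), the CCAAT box (6) and the heat shock element (0). Their shares over windows of the genes tested were 1.34%, 7.62%, 37.2% and 0.502%. Btg2, an antiproliferative gene, and Csrnp1 are shown as examples of the cAMP element and the AP-1 site, with the matched letters in capitals. Btg2 failed without Sunitinib_1369 and without Sunitinib_1370 (log2 difference -1.39 ± 0.28).
Btg2 (chr1:134079106-134079405, minus strand, GRCm38.p6): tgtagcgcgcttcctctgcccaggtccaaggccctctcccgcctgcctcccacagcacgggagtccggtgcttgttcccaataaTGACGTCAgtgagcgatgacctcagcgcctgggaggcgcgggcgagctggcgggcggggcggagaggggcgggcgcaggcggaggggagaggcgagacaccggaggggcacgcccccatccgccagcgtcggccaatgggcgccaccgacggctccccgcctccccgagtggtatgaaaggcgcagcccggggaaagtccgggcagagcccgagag
Csrnp1 (chr9:119982974-119983273, minus strand, GRCm38.p6): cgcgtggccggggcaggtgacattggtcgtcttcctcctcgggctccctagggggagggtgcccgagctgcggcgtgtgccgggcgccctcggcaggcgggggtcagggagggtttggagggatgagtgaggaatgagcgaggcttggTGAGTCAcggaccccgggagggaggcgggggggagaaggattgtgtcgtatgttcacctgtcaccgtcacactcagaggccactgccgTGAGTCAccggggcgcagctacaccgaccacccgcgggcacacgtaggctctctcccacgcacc

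A list of the aryl hydrocarbon receptor and its targets did not move as 1 group. This receptor is the sensor that induces Cyp1a1 on binding of flat aromatic compounds. Of 8 tested, Cyp1a1, Tiparp and Nqo1 passed as higher with erlotinib and Ahr and Aldh3a1 as higher with sunitinib. Ahr itself was at 10.1, 11.2 and 9.702 CPM with sunitinib, 13.5, 6.01 and 10.2 CPM in control and 5.31, 5.33 and 5.01 CPM with erlotinib (log2 difference 0.99 ± 0.22, adjusted p = 0.0152), and failed without Sunitinib_1369 and without Erlotinib_1376. Aldh3a1, an aldehyde dehydrogenase, had a log2 difference of 1.44 ± 0.297 and failed without Erlotinib_1376. Tiparp passed in 1 and Nqo1 in 2 of the 6 fits, and neither passed without Sunitinib_1369, Sunitinib_1370, Erlotinib_1375 or Erlotinib_1376. The Cyp1a1 difference was the 1 member on the side of erlotinib that passed in all 6.

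Some genes that glucocorticoids and NF-kB induce also passed as higher with erlotinib. Of 24 tested glucocorticoid receptor targets 8 passed, all higher with erlotinib (33.3%, against 5.52% of all genes, median log2 difference -0.64). Of 29 tested inflammation and NF-kB genes 8 passed, again all in that direction (27.6%, median -0.82). Cebpd, a transcription factor of the acute phase response, was at 26.5, 31.5 and 36.3 CPM with sunitinib, 29.8, 112 and 55.7 CPM in control and 123, 130.1 and 154 CPM with erlotinib (log2 difference -2.11 ± 0.41, adjusted p = 0.0141). It failed without Sunitinib_1369 and without Erlotinib_1376. Control_1366 was high in its group here, and the glucocorticoid list score was -0.57, 0.41 and -0.29 in the control libraries, against -0.50, -0.09 and -0.31 with sunitinib and 0.46, 0.47 and 0.76 with erlotinib. Per1, a clock gene with a glucocorticoid response, had a log2 difference of -0.86 ± 0.17 and failed without Erlotinib_1376. The glucocorticoid count of 8 was 1 without Erlotinib_1376, 2 without Sunitinib_1369, 3 without Sunitinib_1370 and 5 without Sunitinib_1368 or Erlotinib_1375.

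The inflammation count was 6 to 9 over the 6 fits and 7 with the atrial score as a covariate, while its median was -0.54 without Erlotinib_1375. Ptgs2, the inducible cyclooxygenase, was at 1.15, 2.001 and 0.914 CPM with sunitinib, 1.102, 1.77 and 4.000 CPM in control and 5.06, 5.45 and 6.08 CPM with erlotinib. No erlotinib library overlapped a sunitinib or control library (log2 difference -2.02 ± 0.400, adjusted p = 0.00954). Il1r1, the receptor for interleukin 1, had a log2 difference of -0.85 ± 0.16 (adjusted p = 0.007903), and Birc3, an inhibitor of cell death induced by NF-kB, one of -0.82 ± 0.16 (adjusted p = 0.00783). Nfkb2 and Nfkbiz, a subunit and an atypical inhibitor of NF-kB, passed with log2 differences of -0.499 ± 0.097 and -0.95 ± 0.19. The neutrophil markers moved in the same direction, with all 10 tested members below 0 (median -1.10) and 1 of them passing (10.0%, against 5.52% of all genes). Summed levels of the neutrophil markers were 18.1 to 41.4 CPM with sunitinib, 17.4 to 43.1 CPM in control and 26.6 to 108 CPM with erlotinib. The part of those cells in the differences of inflammation genes was not tested. Of 31 tested interferon-stimulated genes 0 passed in edgeR or DESeq2, and 0 had an unadjusted p under 0.05. Their score varied within groups, at 0.77, -0.36 and -0.39 with sunitinib and -0.25, 0.83 and -0.18 with erlotinib.

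**Figure D4:**
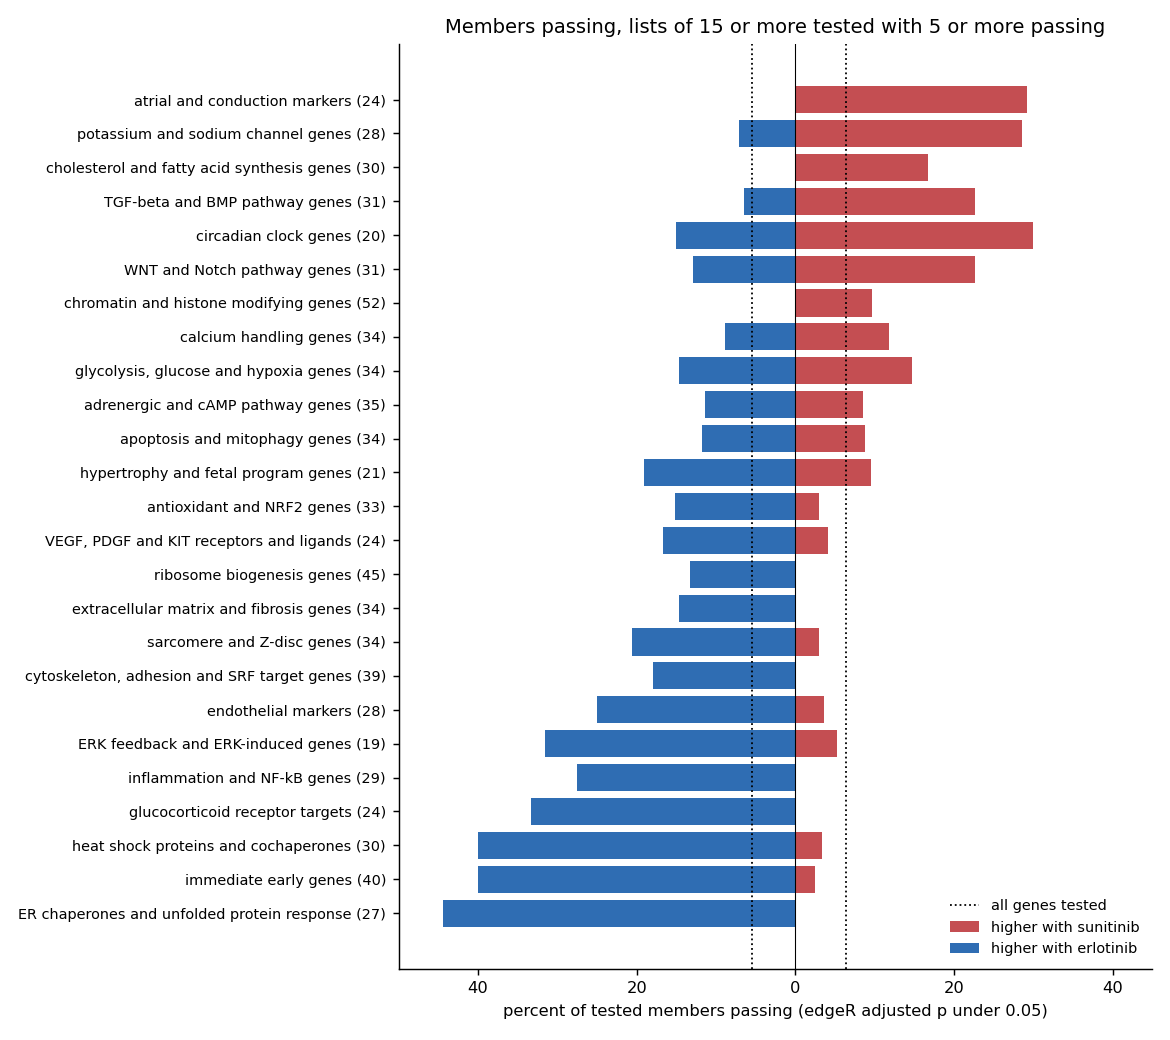
Percent of tested members that passed (edgeR adjusted p under 0.05) as higher with sunitinib (right, red) or higher with erlotinib (left, blue), for lists with 15 or more tested members (number in brackets) and 5 or more passing. Dotted lines are the 6.35% and 5.52% of all genes tested, and ER chaperones, immediate early genes and heat shock proteins reach 40.0% or more on the side of erlotinib.

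Cytosolic chaperones were among the genes that passed as higher with erlotinib. Of 30 tested heat shock proteins and cochaperones 28 had a log2 difference below 0, and the median was -0.25. As higher with erlotinib 12 passed (40.0%, against 5.52% of all genes), and as higher with sunitinib 1 did (Hspa2). Among the 6 fits Hspa2 passed only in that without Sunitinib_1370. Hsp90aa1, the stress-inducible HSP90, was at 166, 165 and 162 CPM with sunitinib, 189, 189 and 193 CPM in control and 282, 244 and 262 CPM with erlotinib. The 3 groups did not overlap, with control nearer to sunitinib (log2 difference -0.67 ± 0.09, adjusted p = 0.001700). Hspb1, the small heat shock protein HSP25 that binds actin and Z-disc proteins, was at 268, 218 and 278 CPM with sunitinib, 265, 268 and 243 CPM in control and 398, 409 and 464 CPM with erlotinib (log2 difference -0.73 ± 0.11, adjusted p = 0.00307). Here control and sunitinib overlapped.

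Dnajb4, an HSP40 cochaperone, had the widest difference of those that passed in all 6 fits (-0.997 ± 0.12 on the log2 scale, adjusted p = 0.00141). Hspa8, the constitutive HSP70, was at 1080.2 ± 112 CPM with sunitinib and 1514 ± 27.3 CPM with erlotinib (log2 difference -0.49 ± 0.09, adjusted p = 0.00563). The inducible HSP70 genes had wider differences with wider errors, -2.06 ± 0.704 for Hspa1a (adjusted p = 0.08896) and -1.36 ± 0.63 for Hspa1b (adjusted p = 0.194). Those 2 genes are nearly identical copies, so the split of their reads is uncertain. The list count of 12 was 5 without Sunitinib_1369 or Erlotinib_1376, 6 without Sunitinib_1370 and 7 without Erlotinib_1375, and 6 members passed with the atrial score as a covariate.

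The binding element of the heat shock factors was searched on both strands as the units GAA, TTC and GAA with 2 bases of any kind between neighbours. It was in 3 of 15 windows, of 10 genes, of the heat shock genes that passed as higher with erlotinib. The share was 0.603% over all windows, 0.502% over those of the genes tested and 0.781% over those of all genes that passed as higher with erlotinib. The 3 windows belong to 2 genes, Chordc1, a cochaperone of HSP90, and Hsph1, an HSP110 protein whose 2 windows overlap. Both are shown, with the matched letters in capitals (in Hsph1 the match is on the opposite strand, in Chordc1 3 matches on the 2 strands overlap), and were chosen for the match and not for their differences. Chordc1 (-0.32 ± 0.09 on the log2 scale, adjusted p = 0.0401) and Hsph1 (-0.45 ± 0.13, adjusted p = 0.0465) passed in none of the 6 fits that left out 1 library.
Chordc1 (chr9:18292017-18292316, plus strand, GRCm38.p6): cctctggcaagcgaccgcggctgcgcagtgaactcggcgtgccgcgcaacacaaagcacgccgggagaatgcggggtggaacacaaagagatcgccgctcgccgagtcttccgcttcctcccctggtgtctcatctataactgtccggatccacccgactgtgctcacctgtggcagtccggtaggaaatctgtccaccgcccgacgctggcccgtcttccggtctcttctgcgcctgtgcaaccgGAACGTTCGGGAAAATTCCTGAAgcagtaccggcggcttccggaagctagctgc
Hsph1 (chr5:149636266-149636565, minus strand, GRCm38.p6): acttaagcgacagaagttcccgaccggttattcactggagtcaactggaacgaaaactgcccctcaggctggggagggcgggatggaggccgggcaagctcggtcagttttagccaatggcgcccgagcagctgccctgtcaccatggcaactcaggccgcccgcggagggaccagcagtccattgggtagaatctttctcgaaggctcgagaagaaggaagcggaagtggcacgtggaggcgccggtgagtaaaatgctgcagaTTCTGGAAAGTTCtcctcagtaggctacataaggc

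Chaperones of the endoplasmic reticulum followed the same direction, with control nearer to erlotinib. Of 27 tested members of this list 12 passed, all as higher with erlotinib (44.4%, against 5.52% of all genes), and the median log2 difference was -0.27. For the 12 the median position of control was 0.349. Hsp90b1, the HSP90 of this compartment, was at 311, 303 and 312 CPM with sunitinib, 355, 370.4 and 381 CPM in control and 433, 378 and 400.4 CPM with erlotinib, so that control overlapped erlotinib and not sunitinib (log2 difference -0.39 ± 0.07, adjusted p = 0.005603). Calr, the calcium-binding chaperone calreticulin, differed by -0.38 ± 0.07 (adjusted p = 0.00798) and Pdia6, a disulfide isomerase, by -0.44 ± 0.08 (adjusted p = 0.00795).

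The widest difference of this list was that of Chac1, a glutathione-degrading enzyme induced by ATF4, at 5.04, 4.002 and 2.601 CPM with sunitinib, 7.37, 8.902 and 6.57 CPM in control and 12.4, 13.8 and 13.8 CPM with erlotinib. The 3 groups did not overlap (log2 difference -1.77 ± 0.23, adjusted p = 0.00141). Atf4, the transcription factor of the integrated stress response, had a log2 difference of -0.52 ± 0.099 (adjusted p = 0.00801), with control at a position of 0.91. The count of 12 was 5 without Erlotinib_1374, 6 without Sunitinib_1369 or Erlotinib_1376 and 7 without Sunitinib_1370.

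Genes of ribosome assembly leaned the same way by small amounts. Of 45 tested, 37 had a log2 difference below 0 and 6 passed, all as higher with erlotinib (13.3%, against 5.52% of all genes, median -0.14). The count of 6 was 2 without Erlotinib_1376 and 3 without Erlotinib_1375. Polr1e, a subunit of RNA polymerase I, was at 13.3, 11.9 and 13.8 CPM with sunitinib, 18.2, 18.4 and 16.4 CPM in control and 19.1, 19.8 and 21.3 CPM with erlotinib (log2 difference -0.62 ± 0.11, adjusted p = 0.00536). Gnl3, the nucleolar GTPase nucleostemin, had a log2 difference of -0.44 ± 0.07 (adjusted p = 0.00453). No difference was detectable at this depth in the RNA levels of the ribosomal proteins themselves. Of 61 cytosolic ribosomal proteins 0 passed in edgeR or DESeq2, with 1 at an unadjusted p under 0.05 and a median of -0.02.

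Some stretch and load genes of heart muscle were among those higher with erlotinib. Nppb, the B-type natriuretic peptide, was at 154, 71.7 and 40.2 CPM with sunitinib, 115, 205 and 169 CPM in control and 516, 644 and 902 CPM with erlotinib. Sunitinib and control overlapped, while every erlotinib library was above both. The level with erlotinib was 7.73-fold that with sunitinib (log2 difference -2.95 ± 0.47, adjusted p = 0.007903). Ankrd1, a titin-binding ankyrin repeat protein that rises with stretch, was at 1261, 1207 and 1107 CPM with sunitinib, 1787, 1589 and 1318 CPM in control and 2155, 2809.7 and 2977 CPM with erlotinib. The groups did not overlap (log2 difference -1.15 ± 0.16, adjusted p = 0.00344).

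Genes of the Z-disc and of sarcomere repair passed in the same direction. Flnc, filamin C, was at 406, 322 and 317 CPM with sunitinib and 503, 906 and 721 CPM with erlotinib (log2 difference -1.03 ± 0.19, adjusted p = 0.00855). Xirp1 and Xirp2, actin-binding Xin repeat proteins, had log2 differences of -1.11 ± 0.197 and -0.96 ± 0.19, and Rcan1, a feedback inhibitor of calcineurin, one of -1.46 ± 0.27. Of 34 tested sarcomere and Z-disc genes 7 passed as higher with erlotinib and 1 (Fhod3, failing in all fits but that without Sunitinib_1369) as higher with sunitinib (20.6% and 2.94%, against 5.52% and 6.35% of all genes). Of 21 hypertrophy and fetal program genes 4 passed as higher with erlotinib (19.0%) and 2 as higher with sunitinib (9.52%, near the 6.35% of all genes). The 2 were 1 without Sunitinib_1368, Sunitinib_1369 or Erlotinib_1374 and 0 without the other 3 libraries. The sarcomere count of 7 was 3 without Erlotinib_1375 or Erlotinib_1376, and 4 without Sunitinib_1369 or Sunitinib_1370. Of the 21 hypertrophy and fetal program genes 10 had a log2 difference above 0 and 11 below, with a median of -0.10. Acta1, skeletal actin, a fetal gene of the ventricle, was at 84.6, 193 and 26.7 CPM with sunitinib, 302, 242 and 362 CPM in control and 212, 391 and 461 CPM with erlotinib, and did not pass (log2 difference -1.805 ± 0.604, adjusted p = 0.0897). Nppa, the atrial natriuretic peptide, and Myh7 passed in none of the 6 fits that left out 1 library. Their log2 differences in those fits were -0.54 to 0.36 for Nppa and -0.04 to 0.04 for Myh7.

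Genes of the vessel wall also differed. Of 28 tested endothelial markers 7 passed as higher with erlotinib and 1 (Sox7, failing without Erlotinib_1376) as higher with sunitinib (28.6% in all, against 11.9% of all genes, median log2 difference -0.18), while summed marker levels were 3040 to 3320 CPM with sunitinib, 3160 to 3380 CPM in control and 3530 to 3840 CPM with erlotinib. Esam, an adhesion molecule of endothelial junctions, was at 74.6, 66.3 and 73.4 CPM with sunitinib, 70.8, 104 and 77.8 CPM in control and 124, 124 and 156 CPM with erlotinib (log2 difference -0.91 ± 0.13, adjusted p = 0.00349). The count of 7 was 2 without Sunitinib_1369, Erlotinib_1375 or Erlotinib_1376 and 3 without Sunitinib_1370, and 2 markers passed with the atrial score as a covariate. Ednrb, the endothelin receptor of endothelium, was at 16.6, 16.8 and 15.1 CPM with sunitinib, 22.1, 44.8 and 26.8 CPM in control and 48.6, 54.97 and 66.8 CPM with erlotinib. No groups overlapped (log2 difference -1.81 ± 0.23, adjusted p = 0.00244).

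The basement membrane collagens Col4a1 and Col4a2, which share a promoter region and form 1 trimer, both passed. Col4a1 was at 315, 262 and 207 CPM with sunitinib, 294, 356 and 368 CPM in control and 426, 528 and 622 CPM with erlotinib (log2 difference -1.01 ± 0.16, adjusted p = 0.00538), and Col4a2 had a log2 difference of -0.82 ± 0.16 (adjusted p = 0.0108). Itga5, the integrin subunit that binds fibronectin, differed by -0.78 ± 0.14, and Rgs5 and Higd1b, pericyte markers, by -0.55 ± 0.096 and -0.76 ± 0.14. The pericyte and smooth muscle markers did not lean that way as a list. Of 18 tested, 10 had a log2 difference above 0 and 8 below, with a median of 0.02. Rgs5 and Higd1b were the 2 that passed as higher with erlotinib (11.1%, against 5.52% of all genes). As higher with sunitinib 1 passed (5.56%, against 6.35%). Of 34 tested matrix and fibrosis genes 5 passed as higher with erlotinib (14.7%, against 5.52% of all genes), and 0 did without Sunitinib_1369, Sunitinib_1370, Erlotinib_1375 or Erlotinib_1376. Among the genes of cytoskeleton and adhesion 7 of 39 passed as higher with erlotinib (17.9%), and 1 or 2 did without each of these same 4 libraries.

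On the side of sunitinib, the passing genes included ion channels of the heart's electrical activity. Of 28 tested potassium and sodium channel genes 8 passed as higher with sunitinib and 2 as higher with erlotinib (28.6% and 7.14%, against 6.35% and 5.52% of all genes). The second share was near that of all genes, and the median log2 difference was 0.20. Kcnh2, the channel of the rapid delayed rectifier current, was at 113, 127 and 148 CPM with sunitinib, 128, 96.9 and 107 CPM in control and 76.4, 71.1 and 72.5 CPM with erlotinib. Control overlapped sunitinib and stood above all erlotinib libraries (log2 difference 0.82 ± 0.11, adjusted p = 0.00169). Kcnj12, a partner of Kcnj2 in the inward rectifier current, differed by 0.64 ± 0.12 (adjusted p = 0.00771).

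Kcna5, which carries an ultrarapid potassium current, went the other way, at 20.1, 19.2 and 28.7 CPM with sunitinib, 28.3, 41.4 and 29.6 CPM in control and 56.4, 57.8 and 63.4 CPM with erlotinib (log2 difference -1.39 ± 0.18, adjusted p = 0.00277). The count of 8 was 3 without Erlotinib_1376 and 5 without Sunitinib_1370, and without Sunitinib_1368 it was 9, with 4 in the other direction. The count of 2 was 1 without Sunitinib_1370, Erlotinib_1375 or Erlotinib_1376. Among the 8, Kcnj3, Kcnj5 and Hcn4 are also on the list of atrial and conduction markers. Each of them failed without Erlotinib_1376, Kcnj3 and Kcnj5 also without Sunitinib_1370, Kcnj5 also without Erlotinib_1375 and Hcn4 also without Erlotinib_1374.

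Atrial and conduction markers leaned the same way, with 7 of 24 passing in that direction (29.2%, against 6.35% of all genes), 0 in the other and a median log2 difference of 1.04. The count of 7 was 1 without Erlotinib_1376, 3 without Erlotinib_1375 and 4 without Sunitinib_1369 or Sunitinib_1370. Tbx5, a transcription factor of atrial and conduction identity, was at 55.8, 62.2 and 53.1 CPM with sunitinib, 44.03, 27.1 and 31.5 CPM in control and 25.02, 20.9 and 20.5 CPM with erlotinib (log2 difference 1.36 ± 0.15, adjusted p = 0.000828). The lowest sunitinib value was in Sunitinib_1370 and the lowest erlotinib value in Erlotinib_1376, whose atrial scores of -0.59 and -1.28 were the lowest of their groups. In control the lowest value was in Control_1366, whose score of 0.70 was the highest of its group. Markers largely confined to the atrium in the adult heart varied far more within groups. Myl7, the atrial myosin light chain, was at 101, 173 and 0.211 CPM with sunitinib, 78.8, 76.02 and 49.4 CPM in control and 83.01, 6.02 and 0 CPM with erlotinib. Such markers did not pass, with log2 differences of 1.63 ± 2.05 for Myl7 (adjusted p = 0.6605), 1.62 ± 1.85 for Myl4 (0.621) and 1.502 ± 1.77 for Sln (0.633). With the atrial score, of which it is a member, as a covariate Tbx5 had a log2 difference of 1.302 (adjusted p = 0.00531), Kcnh2 one of 0.87 (0.00538) and Kcnj2 one of 0.82 (0.00144).

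**Figure D5:**
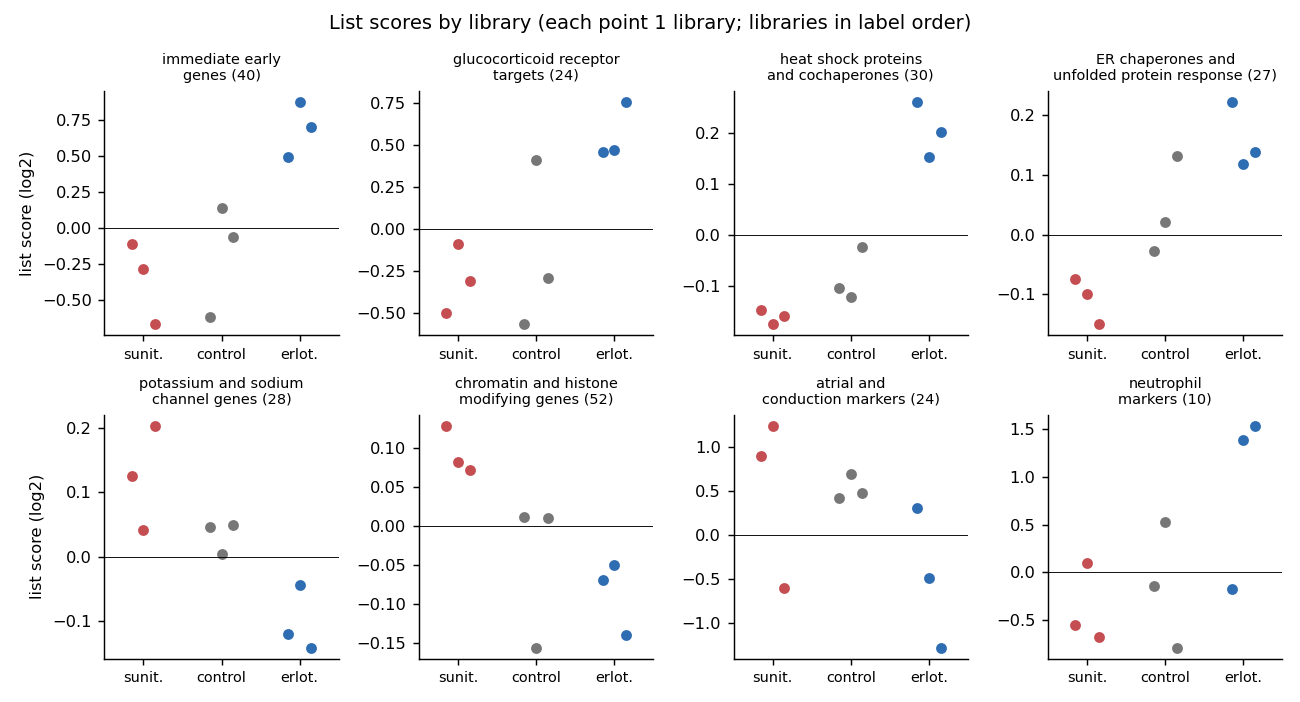
List scores (mean log2 CPM of the tested members, relative to the mean over all 12 libraries) in each sunitinib, control and erlotinib library, for 8 lists with the number of members tested in brackets. In the upper row the erlotinib libraries are highest for immediate early, glucocorticoid and heat shock genes, and in the lower row the atrial and neutrophil scores vary within groups, Sunitinib_1370 and Erlotinib_1376 being low in the atrial score.

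Clock genes passed in both directions. Of 20 tested, 6 passed as higher with sunitinib (30.0%, against 6.35% of all genes) and 3 of 20 as higher with erlotinib (against 5.52%). Hlf, an output factor of the clock, was at 44.2, 42.5 and 47.2 CPM with sunitinib, 44.9, 35.5 and 31.8 CPM in control and 25.4, 19.7 and 13.8 CPM with erlotinib (log2 difference 1.18 ± 0.18, adjusted p = 0.004499), and the repressor Cry2 differed by 0.66 ± 0.11 (adjusted p = 0.00463). Nr1d1, the repressor REV-ERB alpha, was at 73.6, 46.7 and 39.7 CPM with sunitinib, 112, 104 and 157 CPM in control and 131, 109.9 and 141 CPM with erlotinib. Control and erlotinib overlapped and sunitinib stood below both (log2 difference -1.25 ± 0.22, adjusted p = 0.00894). Arntl, the core activator BMAL1, did not pass (-0.601 ± 0.42 on the log2 scale, adjusted p = 0.384). The hour of tissue collection is not among the labels, and its part in these differences was not tested. The counts of 6 and 3 were 2 and 1 without Erlotinib_1376, and 3 and 2 without Sunitinib_1369, Sunitinib_1370 or Erlotinib_1375.

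Developmental signalling genes also passed in both directions. Of 31 tested genes of the TGF-beta and BMP pathways 7 passed as higher with sunitinib and 2 as higher with erlotinib, and of 31 genes of the WNT and Notch pathways 7 and 4 did (22.6% and 6.45%, and 22.6% and 12.9%, against 6.35% and 5.52% of all genes). Smad9, a BMP effector, was at 6.196, 6.84 and 4.01 CPM with sunitinib, 4.75, 3.46 and 4.000 CPM in control and 2.82, 1.39 and 1.47 CPM with erlotinib (log2 difference 1.58 ± 0.28, adjusted p = 0.00563). Axin2, a target and inhibitor of WNT signalling, was at 10.1, 9.16 and 6.75 CPM with sunitinib, 7.097, 3.67 and 7.46 CPM in control and 3.65, 2.03 and 2.54 CPM with erlotinib (log2 difference 1.66 ± 0.29, adjusted p = 0.005603). Hey2, a Notch target of the ventricle, differed by 1.12 ± 0.19 (adjusted p = 0.00536).

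Smurf2, a ligase that degrades SMAD proteins, and the WNT receptor Fzd4 were higher with erlotinib, with log2 differences of -0.396 ± 0.07 and -0.67 ± 0.13, and so was the Notch ligand Jag2 (-0.83 ± 0.16). Without Erlotinib_1376 the counts were 1 and 1 for TGF-beta and BMP and 2 and 2 for WNT and Notch. The second counts were also 1 for TGF-beta and BMP without Sunitinib_1369, Sunitinib_1370, Erlotinib_1374 or Erlotinib_1375 and 2 for WNT and Notch without Sunitinib_1369, Sunitinib_1370 or Erlotinib_1375. The first count of the TGF-beta and BMP list was also 2 without Erlotinib_1374 or Erlotinib_1375 and 3 without Sunitinib_1368 or Sunitinib_1369, and that of the WNT and Notch list was 2 without Sunitinib_1369 or Erlotinib_1375 and 4 without Sunitinib_1370.

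Among chromatin regulators the share that passed was near that of all genes. Of 52 tested, 45 had a log2 difference above 0 with a median of 0.12, and 5 passed, all as higher with sunitinib (9.62%, against 6.35% of all genes). Tet1, a DNA demethylase, was at 8.26, 6.71 and 9.35 CPM with sunitinib, 8.47, 2.402 and 6.27 CPM in control and 1.73, 2.09 and 1.603 CPM with erlotinib (log2 difference 2.16 ± 0.42, adjusted p = 0.01002), and failed without Erlotinib_1376. The count of 5 was 0 without Erlotinib_1376, 1 or 2 without Sunitinib_1368, Sunitinib_1369, Erlotinib_1374 or Erlotinib_1375, and 3 without Sunitinib_1370. Of 30 tested genes of cholesterol and fatty acid synthesis 5 passed, all as higher with sunitinib (16.7%, against 6.35% of all genes). Without Sunitinib_1370, Erlotinib_1374 or Erlotinib_1376, 0 did. The count was 1 without Sunitinib_1369, 2 without Erlotinib_1375 and 3 without Sunitinib_1368. Npc1, which exports cholesterol from lysosomes, is on the list of lysosome and autophagy genes. Of 43 tested there 2 passed as higher with sunitinib (4.65%, against 6.35% of all genes). As higher with erlotinib 1 passed (2.33%, against 5.52%), and the median log2 difference was -0.03. Npc1 was at 205, 221 and 209 CPM with sunitinib, 179.6, 140.4 and 140.2 CPM in control and 143, 132 and 130.3 CPM with erlotinib (log2 difference 0.65 ± 0.104, adjusted p = 0.00419).

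Genes of other processes passed in both directions. Pde4d, a phosphodiesterase that breaks down cAMP, was higher with sunitinib (0.57 ± 0.101 on the log2 scale, adjusted p = 0.00563), and Crem, a cAMP-responsive factor, and Prkar1a, a regulatory subunit of protein kinase A, were higher with erlotinib (-0.84 ± 0.17 and -0.48 ± 0.07). The proapoptotic genes Bcl2l11 (BIM) and Bik were higher with sunitinib. Bcl2l11 was at 21.6, 22.1 and 26.2 CPM with sunitinib, 18.5, 15.4 and 20.1 CPM in control and 12.4, 10.8 and 11.6 CPM with erlotinib (log2 difference 1.01 ± 0.12, adjusted p = 0.00111), and Bik differed by 1.001 ± 0.18 (adjusted p = 0.00651). Of 34 genes of apoptosis and mitophagy 12 had a log2 difference above 0 and 22 below, with a median of -0.10. As higher with sunitinib 3 passed (8.82%, near the 6.35% of all genes) and as higher with erlotinib 4 did (11.8%, against 5.52%). The count of 4 was 1 without Sunitinib_1370, Erlotinib_1375 or Erlotinib_1376 and 2 without Sunitinib_1369.

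For a few genes control sat with 1 drug. Wnk2, a kinase that governs chloride cotransport, was at 184, 175 and 213 CPM with sunitinib, 127, 124 and 129.8 CPM in control and 116, 119.9 and 128 CPM with erlotinib. Control and erlotinib overlapped and all 3 sunitinib libraries stood above them (log2 difference 0.65 ± 0.08, adjusted p = 0.00132). Corin, the protease that activates the atrial natriuretic peptide, was at 487, 536 and 675 CPM with sunitinib, 402, 398 and 394 CPM in control and 402, 368 and 421 CPM with erlotinib, again with sunitinib alone apart (log2 difference 0.51 ± 0.102, adjusted p = 0.00938). Socs2, an inhibitor of growth hormone signalling, was at 25.7, 24.5 and 18.8 CPM with sunitinib, 31.8, 42.5 and 32.9 CPM in control and 38.4, 34.7 and 38.9 CPM with erlotinib (log2 difference -0.697 ± 0.13, adjusted p = 0.008301).

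Against control alone, Wnk2 differed with sunitinib by 0.59 ± 0.08 on the log2 scale (adjusted p = 0.0914), Corin by 0.51 ± 0.102 (0.203) and Socs2 by -0.63 ± 0.14 (0.234), so none passed in that comparison. On the other side, Spry4 differed from control with erlotinib by 1.37 ± 0.15 (adjusted p = 0.00642), Arc by 2.35 ± 0.37 (0.0385), Epha2 by 0.83 ± 0.13 (0.0385) and Hspb1 by 0.71 ± 0.11 (0.0385), and all 4 passed. As the count against control fell to 0 without Control_1365 or Control_1367, none of these 4 passed there.

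Of 24 tested receptors and ligands of the VEGF, PDGF and KIT families 4 passed as higher with erlotinib (16.7%, against 5.52% of all genes) and 1 as higher with sunitinib, and of 15 of the ErbB family 2 passed in each direction (26.7% in all, against 11.9%). The count of 4 was 0 without Sunitinib_1369, Erlotinib_1375 or Erlotinib_1376, 2 without Sunitinib_1370 or Erlotinib_1374, and 0 with the atrial score as a covariate. The ErbB count on the side of sunitinib was 0 without Sunitinib_1370 or Erlotinib_1376 and 1 without Sunitinib_1368, Sunitinib_1369 or Erlotinib_1375. Egfr was at 5.53, 10.4 and 6.54 CPM with sunitinib and 6.21, 7.48 and 9.29 CPM with erlotinib (log2 difference -0.03 ± 0.28, adjusted p = 0.959), a value whose sign changed with the libraries and settings used. Kdr, the main VEGF receptor, was at 201, 158 and 137 CPM with sunitinib and 121, 139 and 92.9 CPM with erlotinib (0.496 ± 0.31, adjusted p = 0.341). The other VEGF receptor Flt1 (-0.32 ± 0.104, adjusted p = 0.0621) and the PDGF receptors Pdgfra (0.25 ± 0.11, 0.162) and Pdgfrb (0.14 ± 0.098, 0.392) did not pass either. Kit (-1.07 ± 0.27, adjusted p = 0.0258) and Ret (-0.79 ± 0.22, 0.0388) passed as higher with erlotinib, and Erbb2, a partner of EGFR, as higher with sunitinib (0.59 ± 0.16, 0.0336). Among the 6 fits Ret passed only in that without Sunitinib_1368, Erbb2 only in that without Sunitinib_1369, and Kit in those without Sunitinib_1368 or Erlotinib_1374. The Ret level with erlotinib was 4.45 ± 0.569 CPM, close to the 4.83 ± 0.266 CPM of control.

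Genes of the respiratory chain, the proteasome and antigen presentation gave no calls. Of 70 nuclear oxidative phosphorylation subunits 0 passed in edgeR or DESeq2, 0 had an unadjusted p under 0.05 and the median log2 difference was -0.04. The counts were also 0 for 37 proteasome subunits (2 in DESeq2, 4 at an unadjusted p under 0.05), 20 genes of the JNK and p38 pathways (0 and 6) and 7 MHC class II genes (0 and 0). Of all genes 28.1% had an unadjusted edgeR p under 0.05. The MHC class II score varied widely within groups, at 1.51, -0.635 and -0.97 with sunitinib and 0.26, 1.55 and -0.57 with erlotinib. Its median log2 difference of -0.39 was -1.76 without Sunitinib_1368 and 0.53 without Erlotinib_1375. Of 38 genes of fatty acid uptake and oxidation 3 passed, all as higher with sunitinib (7.89%, near the 6.35% of all genes). Their count was 1 without Sunitinib_1370 and 0 without Sunitinib_1369 or any 1 of the erlotinib libraries. Of 34 genes of glycolysis, glucose handling and hypoxia 5 passed in each direction (29.4% in all, against 11.9% of all genes). In either direction 0 did without Sunitinib_1370 and 1 to 3 without each of the other 5 libraries. Of the cell markers, 1 of 26 passed for macrophages and monocytes (Cd14, 3.85%) and 1 of 20 for fibroblasts (Smoc2, 5.0%, failing without Erlotinib_1376), against 11.9% of all genes. For skeletal muscle 0 of 7 passed (2 in DESeq2), and summed levels were 2650 to 2700 CPM with sunitinib and 2820 to 3270 CPM with erlotinib. Brown fat markers summed to 2460 to 4480 CPM with sunitinib and 4150 to 5610 CPM with erlotinib. Of 8 tested, 1 passed as higher with erlotinib (12.5%, against 5.52% of all genes), Gyk, which failed without Erlotinib_1376.

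The genes that passed in each direction differed in length and in level. The tested genes were divided by transcript length into 4 classes of equal size. The share higher with sunitinib was 2.56%, 5.23%, 7.12% and 10.5% from the shortest to the longest class, while the share higher with erlotinib was 5.09%, 5.80%, 5.60% and 5.60%. In classes of mean log2 CPM made the same way, the share higher with erlotinib was 2.62% in the lowest and 9.49% in the highest class, and the share higher with sunitinib was 5.83% and 4.02%. In single libraries the mean relative log2 level of the longest class less that of the shortest was 0.05, 0.07 and 0.02 with sunitinib, -0.03, -0.10 and 0.06 in control and -0.06, -0.02 and -0.14 with erlotinib. The sunitinib and erlotinib libraries did not overlap in it. The same measure between the highest and the lowest class of level was -0.11, -0.18 and 0.12 with sunitinib and 0.11, 0.06 and 0.21 with erlotinib, where the groups overlapped. The part of length and level in the gene differences was not tested.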

How the data were processed

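Per the labels, total RNA of heart tissue was extracted with a Qiagen RNeasy kit and stranded polyA libraries were made with a KAPA kit. The submitters' processing notes name RSEM, Picard 1.88, SAMtools 1.2 and the genome build mm9. The aligner and the gene annotation were not stated there. As deposited by the authors, the tables hold expected counts per gene (RSEM's estimated counts, which can be fractional), and TPM and FPKM values beside them that were used only to check the files. Gene lengths came from the same deposited tables. A scaled signal, also deposited for each gene, served 1 alternative. Library totals of 14304529 to 16534769 expected counts set the precision per library, and intervals cover counting error only.

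Expected counts were rounded, filtered with filterByExpr and scaled by TMM, which corrects for library composition. A quasi-likelihood model of edgeR 4.0.16 (R 4.3.3, robust) covered all 12 libraries and gave each group 1 coefficient, tests were two-sided and p-values were Benjamini-Hochberg adjusted over 13440 genes. Positions of control used log2 CPM with a prior count of 2. Summed marker levels are CPM of the library total, without TMM.

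The comparison, the 66 gene lists (49 of processes, 17 of markers) and the alternatives were chosen with earlier results of these data known. Named genes are the 12 widest differences each way among passing genes with a mean of at least 1 CPM and no overlap, the 10 of smallest p, up to 4 passing members of smallest p from each list, and 25 fixed genes. Further members named as examples of a count were chosen after their values were seen. A few of the genes this rule names are not reported here.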

Additional observations from a re-analysis of the deposited data

How the results depend on the processing

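The main count of 1595 genes stayed within 1.5 times under DESeq2 (1934), RLE size factors (1614), no low-count filter (1354), removal of the 20 genes of highest level (1587), a model of the compared groups alone (1531) and limma on the log2 of the authors' scaled signal plus 1 (1713). In the last, 68.0% of the passing genes were higher with sunitinib, against 53.5% in the main test, and the median of all genes was 0.06 in place of 0.01 (log2). With the atrial score as a covariate the count was 929, and leaving out 1 library gave 423 to 1312. Sunitinib against control gave 86 genes in DESeq2, 1 with no filter, 1 with the atrial score, and 0 to 11 leaving out 1 library. Erlotinib against control gave 363 in DESeq2, 0 with the atrial score, 49 by limma on the scaled signal (30.6% above 0, against 59.0% in the main test), and 0 to 235 leaving out 1 library. Control against the midpoint gave 14 in DESeq2. The cause of these changes was not tested, beyond the smaller number of libraries. The log2 difference of Egfr was 0.0037 with the atrial score and -0.35 to 0.15 leaving out 1 library, positive without Sunitinib_1368 (0.15), Sunitinib_1370 (0.05) or Erlotinib_1376 (0.13). The atrial markers turned negative with the score they belong to, Myl4 at -1.92, Sln at -2.45 and Myl7 at -3.06. No paired analysis was possible because the numbers in the library titles are all different.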
